A study of Mus musculus with 10 samples.

Results

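The 10 core circadian clock genes Arntl, Clock, Per1, Per2, Per3, Cry1, Cry2, Nr1d1, Nr1d2 and Dbp were taken by symbol from the gene counts of pancreas libraries. All 10 were found among the 24062 genes listed, and all 10 had enough counts in every library to be tested. The libraries came from whole pancreas of C57BL/6 mice at postnatal day 5, with 5 wild-type (WT) and 5 KSR23 mice and 1 library per mouse. KSR23 mice carried R23, a knock-in of both IL-23 subunits at the ROSA26 locus, and Cre under the promoter of keratin 14 (K14), which is active in keratinocytes, so that expression of the cytokine was aimed at those cells. WT mice were the controls, described as littermates. The hour of the day at which tissue was taken is not given in the sources used here, and each mouse was sampled once, so each value below is a level at 1 unknown point of the daily cycle.

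The circadian clock is a loop of transcription that runs in most cells of the body. The proteins of Arntl (also called BMAL1) and Clock pair on E-box sequences and switch on the Per and Cry genes, whose proteins then return to the nucleus and silence the pair. A second loop runs through Nr1d1 and Nr1d2, the REV-ERB receptors, which repress Arntl at RORE sequences, and Dbp, an activator that binds D-box sequences, carries the rhythm to output genes. In the pancreas both acinar and islet cells keep such clocks, and Per1 also answers quickly to glucocorticoids and to growth factor signals.

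The promoters below are shown because they hold these 3 kinds of element and belong to members with different results, Per1 higher in KSR23, Per3 lower, and Cry1 and Arntl not called. They are RefSeq sequences on GRCm38.p6, printed 5′ to 3′ on the strand of the gene, and capitals mark the motif. The first is chr11:69098699-69098898 (plus strand), the second chr4:151044716-151044915 (minus strand), the third chr10:85185105-85185304 (minus strand), each from 250 to 51 bases upstream of the start, and the last is chr7:113207528-113207557 (plus strand), from 17 to 46 bases after an Arntl start.
Per1: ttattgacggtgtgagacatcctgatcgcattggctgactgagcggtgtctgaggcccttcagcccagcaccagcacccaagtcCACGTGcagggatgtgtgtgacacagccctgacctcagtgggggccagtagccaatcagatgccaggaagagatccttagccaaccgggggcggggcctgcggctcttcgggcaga
Per3: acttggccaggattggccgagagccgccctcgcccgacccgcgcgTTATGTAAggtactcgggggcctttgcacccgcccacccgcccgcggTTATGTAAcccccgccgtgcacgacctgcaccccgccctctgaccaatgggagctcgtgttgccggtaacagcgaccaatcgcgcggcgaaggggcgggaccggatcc
Cry1: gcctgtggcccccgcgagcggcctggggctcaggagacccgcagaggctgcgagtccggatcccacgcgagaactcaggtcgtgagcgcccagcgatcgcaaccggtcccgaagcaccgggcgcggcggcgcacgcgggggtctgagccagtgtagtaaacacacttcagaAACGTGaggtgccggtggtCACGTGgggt
Arntl: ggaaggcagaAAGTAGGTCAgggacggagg

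Per1 had the E-box CACGTG at 166 bases upstream of the first of its 2 starts, and no motif at the second. Per3 had the D-box TTATGTAA at 205 and again at 158 bases upstream, and only 7 of all 32851 promoter windows, or 0.0213%, held that word 2 or more times. Cry1 had an E-box at 60 bases and an E'-box, CACGTT, at 79 bases upstream, the latter read on the opposite strand as AACGTG. In Arntl the RORE, searched as AANT followed directly by AGGTCA or GGGTCA, lay 27 bases after the second of its 2 starts, and the window of the first start held none. Both strands of the 250 bases before to 50 bases after each start were searched, no 2 matches in a member overlapped, and across all windows the E-box was in 7.15%, the E'-box in 4.68%, the D-box in 0.938% and the RORE in 0.435%. An E'-box was also found in Cry2, at 166 bases, and in Nr1d1, at 28 bases upstream. Of the 9 members with an entry, 6 held a motif, and Clock, Nr1d2 and Dbp held none in this window, while Per2 had no entry. These are matches of letters and not measured binding sites.

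The depth was 26830235 to 33189132 gene counts in the WT libraries and 16715976 to 57784136 in the KSR23 libraries. The share of alignments given to no gene was 53.4 to 57.2% in WT and 42.3 to 46.1% in KSR23 libraries, and its part in the results below was not tested. A floor of 3 counts was between 0.0535 and 0.168 CPM, the count scaled by depth, and covers counting error only, and no member was near it, with 57 counts at the lowest. Levels are CPM on library sizes scaled by the TMM method. Il23a, which encodes the p19 subunit of IL-23, was between 0.0372 and 0.316 CPM in WT and between 0.857 and 1.21 CPM in KSR23 pancreas, without overlap. Of all cell type marker lists, the acinar markers had the highest summed level in every library, from 165000 to 189100 CPM in WT and from 120200 to 148100 CPM in KSR23.

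Of the 10 members, 1 was higher in KSR23 (Per1), 3 were lower (Clock, Per2 and Per3) and 6 did not pass the test (Arntl, Cry1, Cry2, Nr1d1, Nr1d2 and Dbp), at an adjusted p under 0.05 in edgeR's quasi-likelihood test. Across all 13882 genes tested, 31.0% passed, 16.2% as higher and 14.8% as lower, so 4 of 10 members was near the background. The median log2 fold change (FC) of the members, KSR23 over WT, was -0.093, beside -0.006 over all genes. The values of the groups did not overlap in 3 of 10 members (Clock, Per1 and Per2), against 19.4% of all genes, with 10.7% wholly higher and 8.74% wholly lower in KSR23. In whole tissue, fewer cells of a type and less RNA per cell cannot be told apart.

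**Figure D1:**
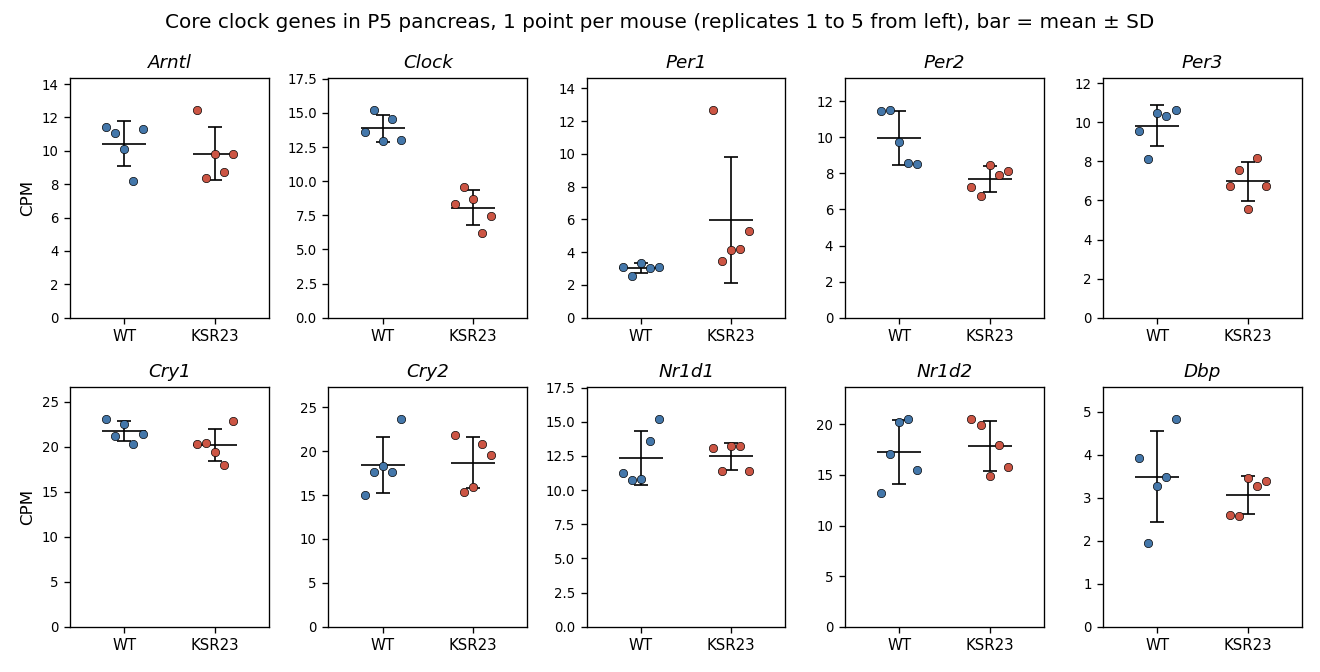
Level of each of the 10 clock genes in CPM (vertical axis, starting at 0) in each mouse, with WT and KSR23 side by side, 1 point per mouse and bars for the mean and SD of 5 mice. Clock lies between 6.19 and 9.56 CPM in KSR23 and between 12.95 and 15.24 CPM in WT, and 1 KSR23 mouse stands at 12.7 CPM for Per1.

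Of the pair that drives the loop, Clock was lower in KSR23 and Arntl was not called. Clock encodes the partner of BMAL1 that also acetylates histones, and lies on chromosome 5 from 76209868 to 76304792 (minus strand, GRCm38). It stood at 13.62, 15.24, 12.95, 14.54 and 13.03 CPM in WT replicates 1 to 5. In KSR23 replicates 1 to 5 it was 8.32, 9.56, 8.72, 6.19 and 7.42 CPM. The highest KSR23 value was well under the lowest WT value. The mean fell from 13.88 ± 0.991 (SD, n = 5) to 8.05 ± 1.29 CPM (n = 5), a log2 FC of -0.79 (SE 0.116, edgeR adjusted p = 4.54e-05), or 0.577 of WT, and the exact two-sided permutation test gave p = 0.00794, the smallest that 5 against 5 allows. Clock was lower past the threshold under each of the 18 alternatives run, with log2 FCs between -0.87 and -0.70.

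Arntl, on chromosome 7 from 113207465 to 113314126 (plus strand), encodes BMAL1, the member without which the loop stops. WT replicates 1 to 5 had 11.45, 11.05, 10.11, 8.22 and 11.28 CPM, and KSR23 replicates had 12.47, 8.38, 9.78, 8.76 and 9.80 CPM. The ranges overlapped almost fully. Its log2 FC was -0.08 (SE 0.125, 95% interval -0.34 to 0.18, edgeR adjusted p = 0.663), an interval that does not reach the estimate for Clock. Within each library, Clock over Arntl was between 0.21 and 0.82 on the log2 scale in WT and between -0.58 and 0.19 in KSR23, and these ranges did not overlap. This ratio does not depend on how the libraries were scaled.

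Each of these proteins has a paralog. Npas2, which can replace CLOCK as the partner of BMAL1, was not called (log2 FC 0.33, edgeR adjusted p = 0.270), with 1.68 to 3.91 CPM in WT and 2.46 to 4.27 CPM in KSR23. On the log2 scale Clock over Npas2 was between 1.74 and 3.18 in WT and between 0.86 and 1.83 in KSR23, and these ranges overlapped slightly. Arntl2, the paralog of Arntl, was lower in KSR23 (log2 FC -0.36, edgeR adjusted p = 0.0249), a call lost with library size alone, with the replicate block and without any of WT replicates 2 and 4 and KSR23 replicates 2 and 5 (edgeR adjusted p over all alternatives 0.0109 to 0.123).

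The 3 Period genes, whose proteins carry CRY into the nucleus as repressors, moved in opposite directions. Per1, on chromosome 11 from 69095217 to 69109960 (plus strand), was low in WT, with 3.12, 2.57, 3.37, 3.03 and 3.09 CPM in replicates 1 to 5. KSR23 replicates had 12.7, 3.46, 4.14, 4.18 and 5.30 CPM. No KSR23 value reached down to the WT range, and KSR23 replicate 1 was far above the other KSR23 mice. The mean rose from 3.04 ± 0.289 to 5.96 ± 3.83 CPM (SD, n = 5 each), with a log2 FC of 0.98 (SE 0.282, edgeR adjusted p = 0.0131) and an exact permutation p of 0.00794. Without KSR23 replicate 1 the log2 FC was 0.49 (edgeR adjusted p = 0.0391), which kept the call at a smaller size.

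Per2, on chromosome 1 from 91415982 to 91459324 (minus strand), had 11.45, 11.53, 9.72, 8.58 and 8.53 CPM in WT. In KSR23 it had 7.24, 6.72, 8.44, 7.89 and 8.16 CPM. The groups were apart by a narrow gap only, since WT replicates 4 and 5 lay just above the highest KSR23 mouse. Per2 fell by a log2 FC of -0.38 (SE 0.119, edgeR adjusted p = 0.0231). The call was lost with library size alone (-0.29, adjusted p = 0.0954, edgeR), with the replicate number as a block (-0.37, adjusted p = 0.0582, edgeR) and without WT replicate 1, WT replicate 2 or KSR23 replicate 2 (adjusted p = 0.0618, 0.0676 and 0.0566, edgeR).

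Per3, on chromosome 4 from 151003652 to 151044665 (minus strand), is the Period gene least needed for the loop itself. It had 9.56, 8.10, 10.49, 10.32 and 10.65 CPM in WT and 6.76, 7.58, 5.59, 8.18 and 6.76 CPM in KSR23. WT replicate 2 and KSR23 replicate 4 overlapped, and the other mice were separated by group. The log2 FC was -0.49 (SE 0.121, edgeR adjusted p = 0.00554, exact permutation p = 0.0159), and it was lower past the threshold under each of the 18 alternatives. Within a library, Per1 over Per2 was between -2.16 and -1.46 on the log2 scale in WT. In KSR23 mice it was between -1.03 and 0.81, above the WT range in all 5. Since the groups were already apart for Per1 and for Per2, in opposite directions, this ratio could not overlap. It restates those results and adds no separate one.

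**Figure D2:**
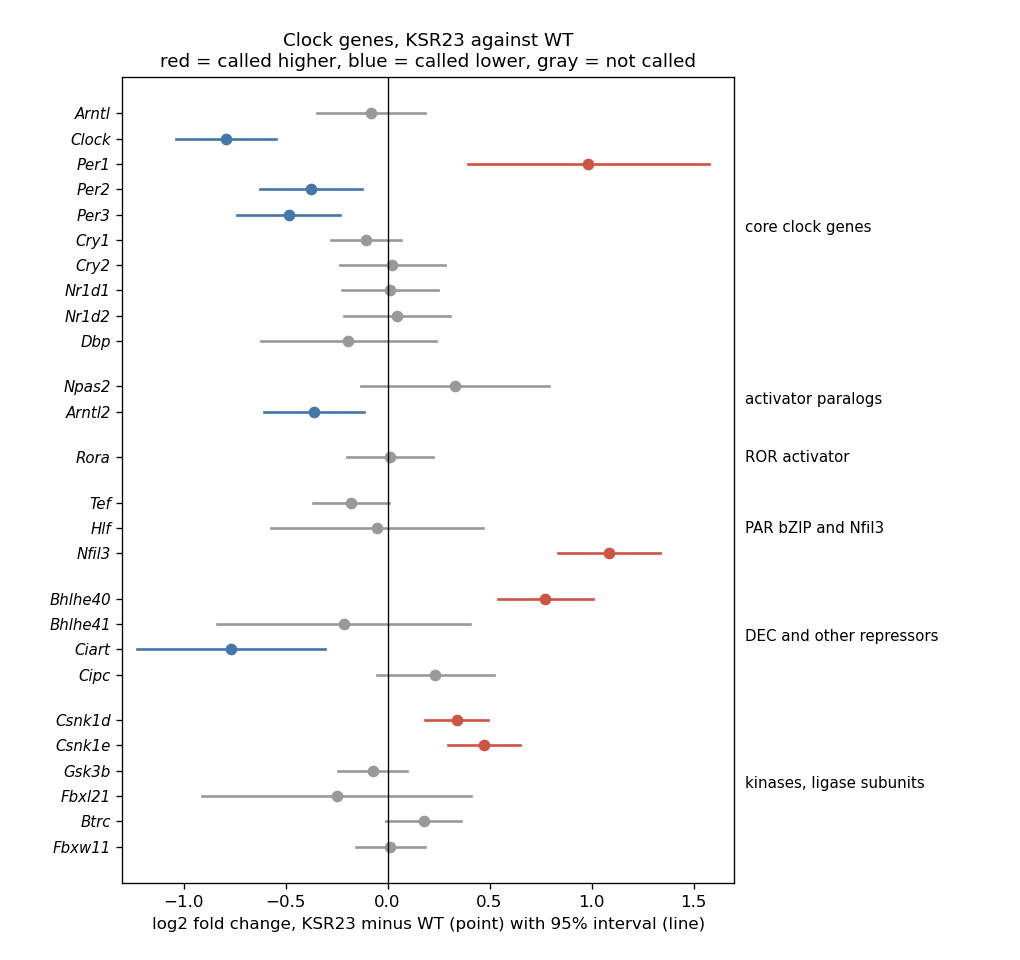
Log2 FC (KSR23 over WT, horizontal axis) of the clock members and of the tested genes of the related lists other than the outputs, each point with its 95% interval from the edgeR fit. Clock, Per2 and Per3 have intervals wholly below 0 and Per1 wholly above 0, while the intervals of Arntl, Cry1, Cry2, Nr1d1, Nr1d2 and Dbp cross 0.

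The Cryptochromes, the main repressors of the CLOCK and BMAL1 pair, were not called. Cry1, on chromosome 10 from 85131700 to 85185064 (minus strand), had 23.11, 21.17, 22.56, 20.25 and 21.44 CPM in WT and 20.27, 20.37, 19.39, 17.94 and 22.82 CPM in KSR23. It had the smallest spread of the members in WT (SD 0.0756 log2 units), and its log2 FC of -0.10 had an interval of -0.28 to 0.07 (edgeR adjusted p = 0.358). Cry2, on chromosome 2 from 92403646 to 92434043 (minus strand), had 15.02, 17.60, 18.35, 17.67 and 23.71 CPM in WT and 21.88, 15.34, 15.87, 20.85 and 19.52 CPM in KSR23. Its log2 FC was 0.02, with an interval of -0.23 to 0.28 (edgeR adjusted p = 0.906). D930015M05Rik, an antisense gene, shares 4.67% of the exon length of Cry2, and the strand setting of the counting is not stated, so reads there cannot be assigned to either.

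The REV-ERB genes were not called. Nr1d1, on chromosome 11 from 98767932 to 98775333 (minus strand), had 11.28, 10.77, 10.84, 13.61 and 15.23 CPM in WT and 13.10, 11.37, 13.25, 13.23 and 11.40 CPM in KSR23 (log2 FC 0.01, interval -0.22 to 0.25, edgeR adjusted p = 0.946). Nr1d2, on chromosome 14 from 18204054 to 18239127 (minus strand), had 13.17, 17.05, 20.21, 20.57 and 15.49 CPM in WT and 20.52, 19.90, 14.87, 17.99 and 15.81 CPM in KSR23 (log2 FC 0.05, interval -0.21 to 0.30, edgeR adjusted p = 0.816). In both genes the KSR23 mice lay within the WT range. The spread of Nr1d1 was narrower in KSR23, with an SD of 0.116 log2 units against 0.223 in WT. Arntl over Nr1d1, a ratio that swings widely over a day in tissues with a strong rhythm, was between -0.73 and 0.04 in WT and between -0.60 and -0.07 in KSR23 on the log2 scale. Thra, on the other strand, shares 8.55% of the exon length of Nr1d1.

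Dbp, the output activator, lies on chromosome 7 from 45705088 to 45710203 (plus strand) and was among the lowest members. WT replicates had 3.92, 1.96, 3.26, 3.48 and 4.84 CPM and KSR23 replicates 2.59, 2.58, 3.47, 3.28 and 3.39 CPM. The WT mice spanned the whole KSR23 range. Its log2 FC was -0.19 with the wider interval of -0.62 to 0.24 (edgeR adjusted p = 0.512), and 18.0% of its exon length is shared with Sphk2 on the opposite strand.

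The spread between mice differed from gene to gene. Per1 in KSR23 had an SD of 0.737 log2 units, wider than 98.5% of all genes tested in that group, while in WT its SD of 0.140 was at the 35.5th percentile and below the 0.155 that counting error alone gives. Dbp had the widest spread in WT (SD 0.475, 92.2nd percentile, highest over lowest mouse 2.47-fold), and 0.210 in KSR23. Both wide spreads rested on 1 mouse, since the SD of Per1 was 0.248 without KSR23 replicate 1 and that of Dbp 0.246 without WT replicate 2, where the fold was 1.48. Clock varied little in WT (SD 0.102, 17.9th percentile) and more in KSR23 (SD 0.239, 65.4th percentile, and 0.151 without KSR23 replicate 4). The other 7 members had SDs from 0.0756 to 0.269 in WT and from 0.116 to 0.232 in KSR23. The highest and lowest mice of a group thus differed by no more than 1.58-fold in these 7 genes.

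**Figure D3:**
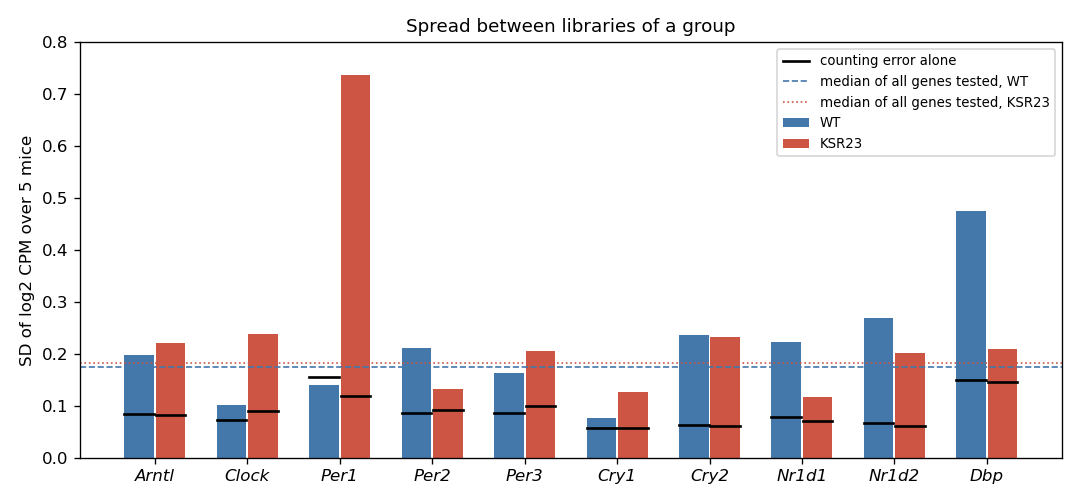
SD of log2 CPM among the 5 mice of each group for each clock gene, beside the SD that counting error alone gives and the median over all genes tested. Per1 in KSR23 (0.737) and Dbp in WT (0.475) stand above the other members, and without KSR23 replicate 1 and WT replicate 2 these SDs are 0.248 and 0.246.

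Per length, the order of the members was led by Cry1. In WT it had 6.50 ± 0.341 CPM per kilobase of exon (SD, n = 5), followed by Nr1d1 at 4.01, Nr1d2 at 3.20, Cry2 at 2.92, Per2 at 1.7, Arntl at 1.39, Dbp at 1.17, Per3 at 1.02, Clock at 1.01 and Per1 at 0.539 CPM per kilobase. Only 3 neighbouring pairs in this order were apart in every WT mouse, Cry1 from Nr1d1, Cry2 from Per2 and Clock from Per1. The other 6 neighbouring pairs overlapped. Length here is that of all annotated exons of a gene together. For Arntl this was 7523 bases against 2976 in its longest coding transcript, and for Per2 5856 against 5833, so the order depends on the length chosen. In KSR23 mice Clock was at 0.586 ± 0.0939 and Per1 at 1.06 ± 0.680 CPM per kilobase, so that Clock, and not Per1, had the lowest mean.

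**Figure D4:**
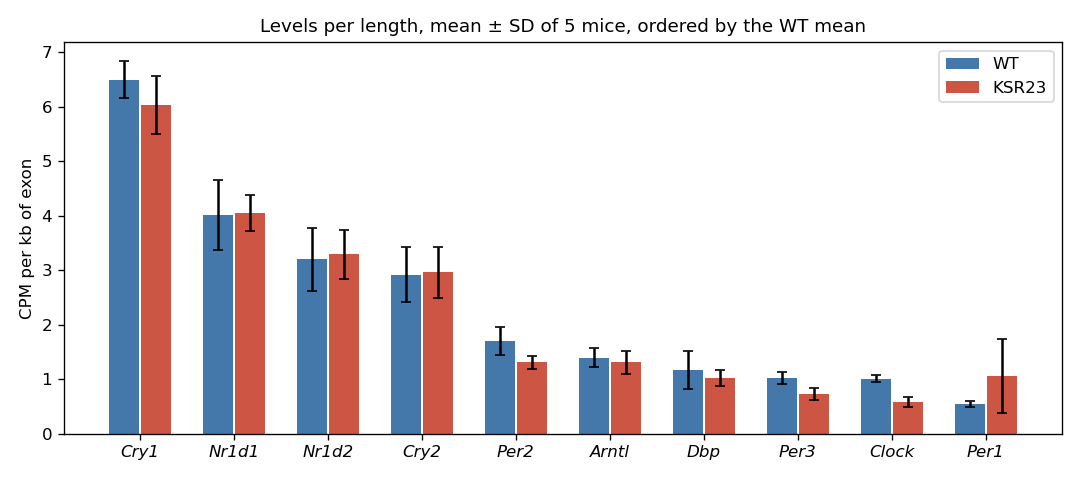
Level of the 10 clock genes in CPM per kilobase of all annotated exons (vertical axis, starting at 0) in WT and KSR23 pancreas, with bars for the mean and error bars for the SD of 5 mice, ordered by the WT mean. Cry1 is highest at 6.50 in WT and Per1 lowest at 0.539, and Clock in KSR23 drops to 0.586.

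The pattern over mice was compared for a gene of each arm, Arntl, Nr1d1 and Dbp. Likeness was measured as the root mean square difference of log2 CPM over the 10 libraries, after centring on each group's mean and scaling to unit SD. The nearest genes to Arntl were Kifc3 (0.335), Gpatch1 (0.390) and Itpkc (0.409), those to Nr1d1 were Cnppd1 (0.302), 2610307P16Rik (0.382) and Zc3hav1 (0.409), and those to Dbp were Sh3d21 (0.338), Mapk15 (0.346) and Xylb (0.350). No member was among the nearest 139 genes, or 1% of 13881, of Arntl, Nr1d1 or Dbp. Nr1d1 and Dbp, both driven by BMAL1 at E-boxes, were 0.898 apart, at rank 656 from Nr1d1 and 932 from Dbp, and the nearest member to Arntl was Per1, at rank 314. These are descriptions over 10 libraries. Genes that move in opposite directions are farthest apart by this measure. The lack of members near a gene thus says nothing about opposite patterns.

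Around the core, 23 other clock genes in 6 lists were tested, and 7 were higher, 4 lower and 12 not called. These shares, 47.8% called, 30.4% higher and 17.4% lower, stood beside 31.0%, 16.2% and 14.8% of all genes. Nfil3, or E4BP4, the repressor that competes with DBP at D-boxes, had 10.65, 9.95, 12.84, 9.64 and 9.60 CPM in WT. In KSR23 it had 24.84, 17.41, 21.80, 20.65 and 26.93 CPM. The groups were clearly separated (log2 FC 1.09, SE 0.119, edgeR adjusted p = 1.62e-06). Nfil3 over Dbp was between 0.99 and 2.35 in WT and between 2.65 and 3.26 in KSR23 on the log2 scale, without overlap. Tef and Hlf, which share the D-box with DBP, were not called.

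Bhlhe40, or DEC1, which represses at the E-box, was also higher. It had 12.82, 11.91, 13.51, 15.06 and 17.68 CPM in WT and 26.75, 20.07, 23.53, 27.36 and 23.50 CPM in KSR23 (log2 FC 0.77, edgeR adjusted p = 3.8e-05), and the groups did not overlap. Ciart, or CHRONO, another repressor of the BMAL1 pair, had 4.66, 5.22, 5.54, 4.35 and 3.35 CPM in WT and 2.01, 1.57, 2.79, 3.23 and 3.87 CPM in KSR23. It was lower (log2 FC -0.77, edgeR adjusted p = 0.0126), with KSR23 replicate 5 inside the WT range, and its promoter window held the E-box at 116, 58 and 44 bases upstream. Bhlhe41 and Cipc were not called. Thus 2 of the 4 tested repressors in this list passed, in opposite directions.

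Both casein kinases that mark PER for degradation were higher, Csnk1d by a log2 FC of 0.34 (edgeR adjusted p = 0.00194) and Csnk1e by 0.47 (edgeR adjusted p = 0.000379), without overlap of the groups. The ubiquitin ligase subunits Fbxl21, Btrc and Fbxw11 and the kinase Gsk3b were not called. Rora, which activates Arntl at the RORE against REV-ERB, was not called either, and Rorb had too few counts to test. Among 7 tested clock-controlled outputs, Tspan4, Por and Pdk4 were higher and Wee1 and Usp2 lower. Wee1 lost its call with library size alone and without WT replicate 2 or KSR23 replicate 4. Usp2 lost its call in 10 of 18 alternatives and Por in 7, leaving out single mice of both groups among them, and Pdk4 had a log2 FC of 0.93 that became 0.41 without KSR23 replicate 1 (edgeR adjusted p = 0.0277 and 0.127). The call of Pdk4 was also lost without WT replicate 1 or 3, with the replicate block and in DESeq2 (adjusted p = 0.0711, 0.0716, 0.0760 and 0.0793).

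Clock genes also answer to cues from outside the loop, and 3 lists of such cue genes were counted beside Per1. Of 9 tested immediate early genes, which growth factor and stress signals switch on within minutes, 8 were higher in edgeR's test, among them Junb (log2 FC 2.40), Egr1 (1.30), Nr4a1 (1.29), Fos (1.23) and Jun (1.20), and Atf3 was not called. Of 8 glucocorticoid response genes, 3 were higher (Errfi1 1.05, Klf9 0.71 and Klf15 0.29), 3 lower (Sgk1 -0.64, Mt1 -1.90 and Mt2 -1.79) and 2 not called (Fkbp5 0.24 and Tsc22d3 -0.02). Of 7 temperature response genes, Cirbp (0.52) and Dnajb1 (0.25) were higher and 5 were not called. Across all genes tested 31.0% were called, 16.2% as higher and 14.8% as lower, so 2 of 7 was near that share. Klf15 and Dnajb1 were near the threshold, losing their calls in 8 and 7 of 18 alternatives.

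KSR23 replicate 1, the mouse with 12.7 CPM of Per1, was the highest KSR23 library for 10 of the 17 tested immediate early and glucocorticoid response genes, or 58.8%, against 21.4% of all genes tested. By list these were 4 of 9 immediate early and 6 of 8 glucocorticoid response genes. This library was the highest for 1 of the 7 temperature response genes, which makes 11 of 24, or 45.8%, over the 3 lists. Such a share was not particular to the cue lists. Outside them, replicate 1 was highest for 4 of 7 clock-controlled outputs and 4 of 10 members. It was highest for 0 of 4 genes in the list of Bhlhe40 and Ciart, and for 0 of 7 acinar markers. In it Errfi1 was at 92.25 CPM (other KSR23 mice 38.22 to 48.83), Dusp1 at 62.63 (22.92 to 29.40), Fos at 26.28 (15.10 to 17.97) and Pdk4 at 38.65 (8.05 to 15.10). Without this mouse Dusp1 kept its call with a log2 FC of 0.33 in place of 0.68 (edgeR adjusted p = 0.0239). The part of such signals in the Per1 value was not tested.

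**Figure D5:**
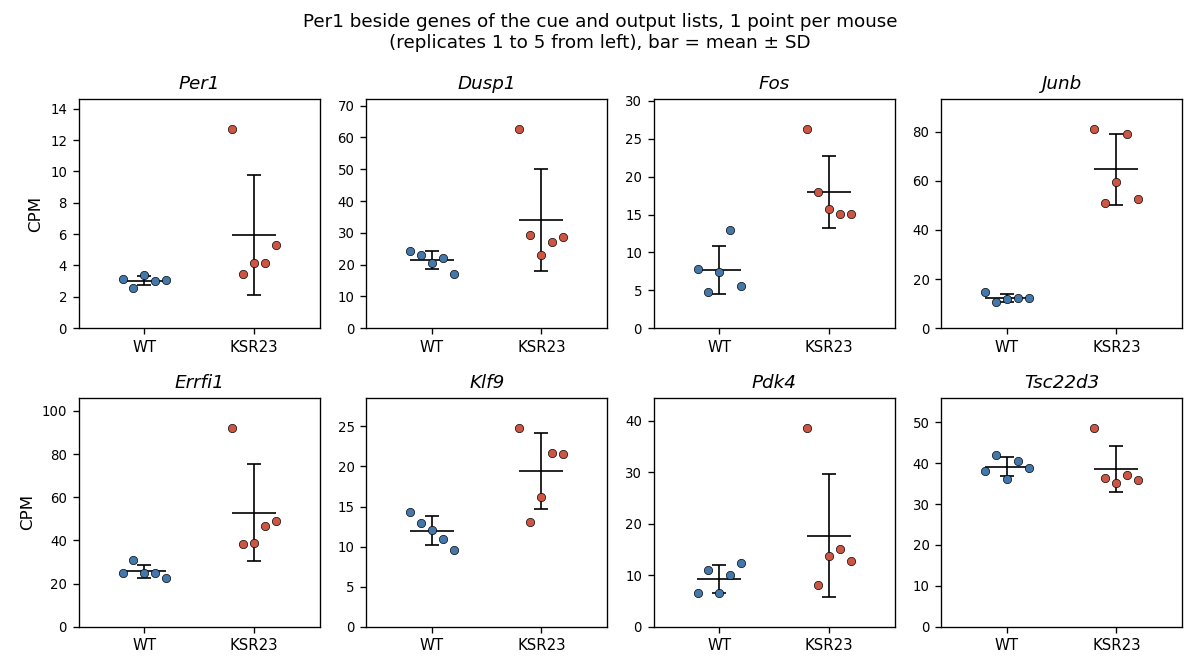
Level in CPM (vertical axis, starting at 0) of Per1 and of 7 genes of the cue and output lists, picked after their values were seen, with 1 point per mouse, bars for the mean and SD, and replicate 1 leftmost in each group. KSR23 replicate 1 has 12.7 CPM of Per1 and 92.25 CPM of Errfi1, the highest KSR23 value for each. It is the highest KSR23 mouse for every gene shown, and cue genes where it is not, such as Jun and Ier2, are left out.

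Markers of the cell types in the pancreas moved between the same groups. Of 58 tested, 18 were higher, 16 lower and 24 not called, beside 16.2% higher and 14.8% lower of all genes. Of 7 acinar markers 5 were lower and 1 higher, and of 7 endocrine markers 5 were lower and 1 higher, with summed levels of 7639 to 10790 CPM in WT and 4714 to 5887 CPM in KSR23. Of 7 duct markers 6 were higher and 1 was not called, and their sum was 1145 to 1252 CPM in WT and 1861 to 2021 CPM in KSR23. Among 6 tested macrophage markers 4 were higher and 1 lower (summed levels 221 to 264.6 CPM in WT and 222 to 316.2 CPM in KSR23), and 2 of 4 tested neutrophil markers were higher (6.18 to 27.57 CPM in WT and 25.77 to 196.3 CPM in KSR23, where replicate 3 had the 196.3 and the other mice at most 46.22). Endothelial markers had 2 of 6 higher and 2 lower (288.8 to 301.7 and 303.8 to 339.4 CPM), lymphocyte markers 1 of 5 higher and 1 lower (10.80 to 14.86 and 10.15 to 17.94 CPM), and mesenchymal markers 1 of 7 higher and 1 lower (8181 to 10270 and 7426 to 9671 CPM). The higher lymphocyte marker was Ptprc and the lower Cd3e. Of those untested, Cd3d (mean 0.110 CPM in WT and 0.446 in KSR23) and Cd8a were higher without overlap at low counts, and Ms4a1 overlapped. The sums take in untested genes. The 5 Schwann and neural markers were not called (7.49 to 10.95 and 7.66 to 12.76 CPM), and 1 of 4 mesothelial markers was lower (176.4 to 214.5 and 154.2 to 207.9 CPM). The 4 adipocyte markers were not tested, since none had 5 counts in every library. Their sums were 1.55 to 15.19 CPM in WT and 0 to 6.37 CPM in KSR23. Adipoq had a mean of 4.74 CPM in WT and 0.896 CPM in KSR23, with overlap of the groups and 0 counts in KSR23 replicates 3 and 5. Lep was at 0 in all 5 KSR23 libraries and in WT replicate 4. The clock runs in all these cell types, and the part of cell makeup in the values of Clock, Per1, Per2 and Per3 was not tested.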

How the data were processed

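Pancreas RNA of 5 WT and 5 KSR23 mice was analysed, with groups and replicate numbers taken from the sample labels. Starting from 100 pg of RNA and oligo-dT priming, the authors amplified cDNA with 15 and libraries with 12 cycles of PCR, aligned 75 bp single-end reads to mm10 with TopHat2 2.1.0 and counted them per gene with HTSeq 0.6.1p1, tool versions per the labels. The deposited files hold raw counts, 1 per gene, for 24062 genes. Strand setting and annotation are not given in the sources used here. Tallies given to no gene (42.3 to 57.2% of alignments, mostly not unique, and higher in every WT library) were kept apart. PCR copies cannot be told apart, so counting error understates the error.

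A minimum of 5 counts in each of the 10 libraries left 13882 genes, which were scaled with TMM and compared with edgeR 4.0.16's quasi-likelihood F test in R 4.3.3, with Benjamini-Hochberg adjustment over all of them and a threshold of 0.05. Log2 CPM used a prior count of 2. Single values were compared by exact permutation (two-sided, 252 splits). Nothing in the labels ties mice to litters, so litter could not be included in the fit. The p-values set the difference of the groups against the spread between these mice, taken as independent, which could not be checked for litter. Libraries with the same replicate number did not deviate together (correlations -0.111 to 0.0661). No pairing by number was thus seen, though this cannot exclude a weak link between such mice. No 2 libraries were copies of each other. Gene models are those of GENCODE M21, and motifs were searched in RefSeq promoters. Of 75-base windows of the members, 100% were in no other gene, except 97.3% for Nr1d2.

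The members and lists were chosen with earlier results of these data known, and some genes of the related lists are not reported here. All members were named, any tested gene of the related lists could be named, and for Arntl, Nr1d1 and Dbp the 3 nearest genes. Alternatives were RLE size factors, library size alone or without the 50 highest genes, 2 other low-count filters, the likelihood ratio test, DESeq2 1.42.0, a prior count of 0.5 (for the spread), the replicate block and leaving out each mouse. The fitting script was tested on simulated data.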

Additional observations from a re-analysis of the deposited data

Results flagged for a closer look

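In 11 of 98 groups of 5 mice looked at, 1 mouse stood apart from the other 4 by Dixon's test, where a rate of 5% gives about 4.90. That number takes the groups as independent. The genes share the same mice, and most cue and output genes were included because they were called. The 2 counts thus cannot show an excess over chance. KSR23 replicate 1 was the mouse set apart for Per1, at 12.7 CPM (others 3.46 to 5.30), Pdk4, at 38.65 CPM (8.05 to 15.10), Errfi1, at 92.25 CPM (38.22 to 48.83), Fos, at 26.28 CPM (15.10 to 17.97), Dusp1, at 62.63 CPM (22.92 to 29.40), and Tsc22d3, at 48.68 CPM (35.27 to 37.17). These 6 values were all above the other mice of the group. The remaining cases were spread over other mice. Rora was low in WT replicate 5, at 12.58 CPM (15.23 to 15.72), Hlf was high in KSR23 replicate 3, at 2.35 CPM (1.23 to 1.53), and Cipc was low in KSR23 replicate 4, at 7.86 CPM (12.22 to 13.51). Fbxw11 was low in WT replicate 1, at 41.67 CPM (49.86 to 51.49), and Nr4a1 was high in WT replicate 3, at 10 CPM (5.04 to 6.29). No cause was tested for any of them.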

How the results depend on the processing

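Under all alternatives run, 3 or 4 members were called, and Clock, Per1 and Per3 kept their call and direction in each. Per2 kept its direction and lost its call in 5 of 18, given beside it above. Library size alone moved the median log2 FC of all genes from -0.006 to 0.087 and the calls from 2250 higher and 2049 lower to 3072 higher and 1164 lower, so values below are to be read against that shift. It turned the sign of Arntl (0.012), Hlf (0.054), Gsk3b (0.020) and Tsc22d3 (0.080), none of them called. Leaving out 1 mouse at a time gave ranges that cross 0 for Cry2 (-0.044 to 0.12), Nr1d1 (-0.035 to 0.090), Nr1d2 (-0.038 to 0.11), Rora (-0.050 to 0.061), Hlf (-0.22 to 0.025), Fbxw11 (-0.042 to 0.057) and Tsc22d3 (-0.12 to 0.015), and the cause was not tested. Of all genes, 3497 to 4173 were called without 1 mouse, against 4299, and Cipc became called without KSR23 replicate 4 and Btrc with library size alone. With the replicate number as a block 3749 genes and 3 members were called, the block ending the call of Per2 among members. No pairing of mice by these numbers was seen, and none can be excluded. Leaving out 1 mouse, an alternative chosen after seeing the data, lowered the SD of 6 other member groups by over 1.5 times besides those of Per1 in KSR23, Dbp in WT and Clock in KSR23. Among the members, Dbp and Per1 had the lowest counts, 57 and 74 in their lowest libraries, and some related genes had fewer.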
